A study of Mus musculus with 18 samples.

Results

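Mitotic iPax3 cells were taken here as the 686 cells, of 2931 cells in a droplet single-cell library of iPax3 myogenic progenitors, in which the summed UMIs of Top2a, Mki67, Cdk1, Ccnb1 and Cenpf reached 10. A UMI is a tag that marks 1 captured transcript molecule. The cells were chosen by those summed UMIs among barcodes that held 500 UMIs or more and under 10% mitochondrially coded UMIs, and whose UMI total was no smaller than 10% of the 99th percentile among the 3000 largest barcodes. They were set against 1027 low-marker cells at a sum of 2 or less, and the 1218 cells at sums of 3 to 9 lay between. Because measured values chose these classes, every contrast between them is a description without a test.

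The iPax3 and iPax7 cells are mouse embryonic stem cell derivatives. Vcam1+Flk1- cells were sorted from embryoid bodies, then expanded for 3 passages under doxycycline, which switches on the transgene, and bFGF. The study set them beside Myf5-lineage cells of My5Cre Rosa26YFP mice, spelled as in the labels, from embryos (Emb, E10.5) and fetuses (Fet, E14.5), and beside hindlimb cells of Pax7-ZsGreen pups at postnatal day 3 (Neo), with 3 bulk libraries in each of the 5 groups. Adult cells of Pax7-ZsGreen mice, aged 3 months, came from the tibialis anterior and gave a single-cell library of 579 cells. A Cre reporter also marks descendants that no longer express Myf5, and the labels give neither the number of stem cell clones nor the pooling of animals. Without a statement that replicates came from separate cultures or animals, p-values measure only the spread between these libraries.

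A dividing cell copies its DNA in S phase and then builds the machinery of mitosis in G2. Cyclin B and its kinase Cdk1 start mitosis, kinesins and microtubule-associated proteins build the spindle, kinetochores attach the chromosomes, and the anaphase-promoting complex (APC/C) marks cyclin B and other proteins for destruction so that the cell can exit. Many of these genes share promoter elements: a CHR (cell cycle genes homology region), bound by DREAM and MuvB complexes, and CCAAT boxes, bound by NF-Y. Muscle progenitors usually leave the cell cycle, with the CDK inhibitors p21 (Cdkn1a) and p57 (Cdkn1c) among the proteins involved, before they assemble the contractile apparatus.

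Promoter windows are shown for 4 rule genes and for Prc1, the spindle midzone protein with the largest ratio outside the rule among the more abundant genes, because the mitosis genes shared letters there. Each runs from 150 bases before the RefSeq gene start (GRCm38.p6) through the first 30 bases of the transcript, on the gene's strand. Capitals mark CHR letters (TTTGAA or TTCGAA, either strand) and CCAAT boxes (CCAAT, either strand). Cenpf lies at chr1:189688057-189688236 (minus), Top2a at chr11:99024160-99024339 (minus), Cdk1 at chr10:69352883-69353062 (minus), Ccnb1 at chr13:100786457-100786636 (minus) and Prc1 at chr7:80294301-80294480 (plus).
Cenpf: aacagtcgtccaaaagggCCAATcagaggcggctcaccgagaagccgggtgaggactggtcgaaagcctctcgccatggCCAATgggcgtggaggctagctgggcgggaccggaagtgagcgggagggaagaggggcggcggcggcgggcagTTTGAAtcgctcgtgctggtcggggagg
Top2a: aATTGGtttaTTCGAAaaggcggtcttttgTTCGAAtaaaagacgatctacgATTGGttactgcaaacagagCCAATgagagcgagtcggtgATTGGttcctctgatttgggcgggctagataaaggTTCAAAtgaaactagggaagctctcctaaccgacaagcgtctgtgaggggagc
Cdk1: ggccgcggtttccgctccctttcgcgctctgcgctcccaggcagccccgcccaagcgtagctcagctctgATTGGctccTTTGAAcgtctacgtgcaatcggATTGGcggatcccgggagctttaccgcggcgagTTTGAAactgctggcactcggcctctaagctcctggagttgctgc
Ccnb1: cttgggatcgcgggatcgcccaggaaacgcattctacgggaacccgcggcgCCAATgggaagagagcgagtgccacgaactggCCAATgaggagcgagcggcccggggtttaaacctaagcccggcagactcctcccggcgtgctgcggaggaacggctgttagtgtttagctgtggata
Prc1: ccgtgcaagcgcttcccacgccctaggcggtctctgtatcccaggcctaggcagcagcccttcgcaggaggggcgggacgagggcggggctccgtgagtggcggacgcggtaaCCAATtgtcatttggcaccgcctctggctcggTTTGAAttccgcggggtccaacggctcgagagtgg
In Cenpf and Prc1 the CHR letters sat within a few bases of the start, with CCAAT boxes upstream of them. Ccnb1 held 2 CCAAT boxes and no CHR letters, which says only that these letters are not in this window.

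The whole window searched ran from 250 bases before to 50 bases after the start. Of 47 genes of the mitosis lists (the rule genes with mitotic kinases and cyclins, spindle, kinetochore, APC/C and cytokinesis genes) at 2-fold or more in mitotic cells, 42 had a RefSeq window. CHR letters were present in 29 of these 42 (69.0%) and a CCAAT box in 35 (83.3%). The 29 windows with CHR letters also held a CCAAT box. Among the 14 matched mitosis genes under 2-fold, 4 (28.6%) held CHR letters and 8 (57.1%) a CCAAT box. The split at 2-fold used the UMIs of the rule and kept the rule genes, so these shares are a description without a test. Over the 2900 matched genes entered in the contrast the shares were 14.1% and 41.3%, and over all 27025 promoters 19.4% and 37.9%. None of the 19 matched contractile and fusion genes held CHR letters. E2F letters (TTTCGCGC, TTTGGCGC or TTTCCCGC, either strand) were in 7 of 26 matched S phase genes (26.9%), in 2 of the 42 mitosis genes (4.76%) and in 4.21% of the matched genes entered. Matches are a description of letters, not of binding.

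**Figure D1:**
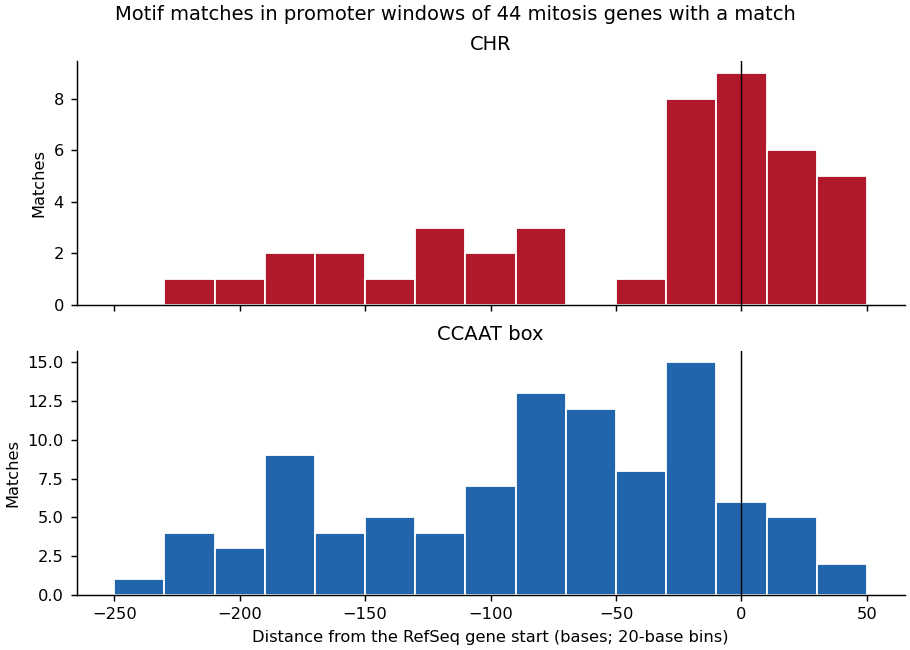
Number of CHR (top) and CCAAT box (bottom) matches by distance from the RefSeq gene start in bases, in windows of the mitosis-list genes with a match. The 44 CHR matches had a median distance of -16.0 bases and 29 of them began within 50 bases of the start, while the 98 CCAAT matches had a median of -71.0 bases; 1 CHR match overlapped a CCAAT match.

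The deposit held a second iPax3 matrix, and its cells were not independent. All 2931 iPax3 cells recurred in it under the same barcodes with 3.48 times the UMIs, and of 7206682 gene and cell entries above 0, 98 were larger in the shallower matrix. Its remaining barcodes were those of the adult library, all 579 adult cells included. The pair was therefore counted as 1 library sequenced to 2 depths, and UMIs present only in the deeper matrix gave a readout that the rule had not used, though from the same cells. The adult and iPax3 cells shared 1 cell barcode.

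Mitotic cells made up 23.4% of the iPax3 cells (exact Clopper-Pearson 95% interval 21.9 to 25). Intervals here and below cover counting error only. No adult cell reached a sum of 10 (0 of 579, which allows a share of up to 0.518%), and the highest adult sum was 7. Any UMI of a rule gene was found in 47 adult cells (8.12%) and 2639 iPax3 cells (90.0%), at median depths of 10765 and 11716 UMIs per cell. With 1 library each, this compares the libraries and not the conditions.

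Within the mitotic cells the marker sum had a median of 15 and a maximum of 63. All 5 rule genes were detected in 365 cells, 4 in 230, 3 in 84 and 2 in 7. Top2a, which untangles DNA, supplied 42.5% of the marker UMIs, and it was found in 681 of the 686 cells (99.3%). Mki67, the coat protein of mitotic chromosomes, was found in 574 cells (83.7%), and Cdk1 in 611 (89.1%). Ccnb1, the cyclin B1 partner of Cdk1, was found in 521 cells (75.9%).

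The class was also one of cells with many UMIs, which a rule on summed UMIs favours. Mitotic cells had a median of 19418 UMIs and low-marker cells 8690, with medians of 3145.5 and 1885 genes. The share of mitotic cells was 4.09% in the quartile of cells with the fewest UMIs, 10.7% and 25.8% in the middle quartiles and 53% in the highest. Just outside the threshold, the 113 cells at a sum of 8 had a median of 14038 UMIs and the 95 cells at 9 a median of 13717. Just inside, the 80 cells at 10 had a median of 18209 and the 80 cells at 11 a median of 14022. The rates of these 4 sets in the deeper matrix were 6.49, 6.44, 6.61 and 7.75 marker UMIs per 10000. Of mitotic cells thinned to 7000 UMIs, 97 of 669 still reached 10, against 0 of 697 low-marker cells. The other cells of the 686 and the 1027 were too shallow to be thinned. A doublet caller marked 0 of the 2931 cells, which at this number of cells is no working call, and 29 of the 30 cells above the 99th percentile of UMIs were mitotic. What doublets or cell size contributed was not tested.

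**Figure D2:**
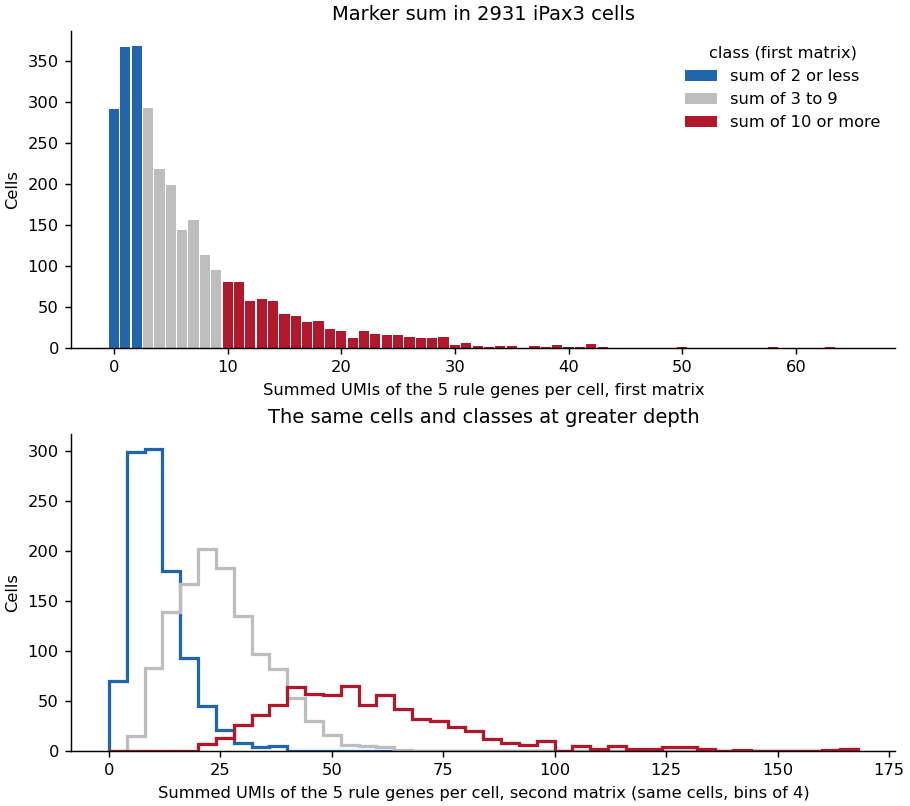
Cells by summed UMIs of the 5 rule genes: in the shallower matrix (top, bars coloured by class) and for the same cells and classes in the deeper matrix (bottom, outlines). The top distribution falls without a gap at 10. Below, all 686 mitotic cells lie at 20 or more, and 477 of 1027 low-marker cells lie at 10 or more. The deeper sums include the UMIs that chose the classes.

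The deeper matrix placed the classes on a continuum. All 686 mitotic cells held 20 or more marker UMIs there, and no low-marker cell remained at 0, although 292 were at 0 in the shallower matrix. The same threshold of 10 took in 79.7% of the same cells. As a rate, mitotic cells had a median of 8.21 marker UMIs per 10000 and low-marker cells 2.75, and 570 of the 686 mitotic cells (83.1%) were above the 95th percentile of the low-marker cells, 5.87 per 10000. The single highest low-marker cell, at 12.9, was at or above 622 of the mitotic cells. The deeper matrix includes the UMIs that chose the classes, so this separation was in part fixed by the rule.

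The 5 rule genes were 5.21-fold to 8.85-fold higher in mitotic cells in the UMIs that chose them. In the UMIs beyond those, the ratios were smaller. Cenpf, a kinetochore protein, was 8.85-fold higher in the first and 2.45-fold in the second reading. Top2a was 7.74-fold and 2.16-fold higher, Mki67 6.45-fold and 2.03-fold, Cdk1 5.42-fold and 2.30-fold, and Ccnb1 5.21-fold and 2.07-fold. In these unused UMIs the 5 genes together were at 801 CPM (counts scaled by the class total) in mitotic cells, 364 in low-marker cells and 579 in 35789 barcodes of 200 to 500 UMIs, too small to count as cells. Summed over the 5 genes, the low-marker level thus lay under that of the small barcodes. Singly, Cdk1, Ccnb1 and Cenpf did so. Top2a, at 132 CPM in low-marker cells and 128 in small barcodes, and Mki67, at 41.15 and 37.06, did not. Marker UMIs in low-marker cells are not read as expression, and what free RNA contributed was not tested. For Cdk1 the small barcodes held 198 CPM and the mitotic cells 160, for Ccnb1 152 and 139, for Cdc20, outside the rule, 171 and 130, and for Plk1 58.7 and 56.7. For Top2a they held 128 and 286 CPM. The small barcodes thus matched or exceeded the mitotic cells for Cdk1, Ccnb1, Cdc20 and Plk1, and not for Top2a. They held 45.6 CPM of Pcna and the mitotic cells 43.5, with 32.6 and 34.8 for Mcm6 and 58.7 and 62.2 for Aurka. Nusap1 was at 79.9 and 90.1, Ube2c at 411 and 466 and Hmgb2 at 279 and 332. Further apart were Prc1 (43.2 and 75.8), Cenpe (36.6 and 71.3) and Hist1h2ap (297 and 944). Ratios over low-marker cells are therefore not read as raised expression.

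**Figure D3:**
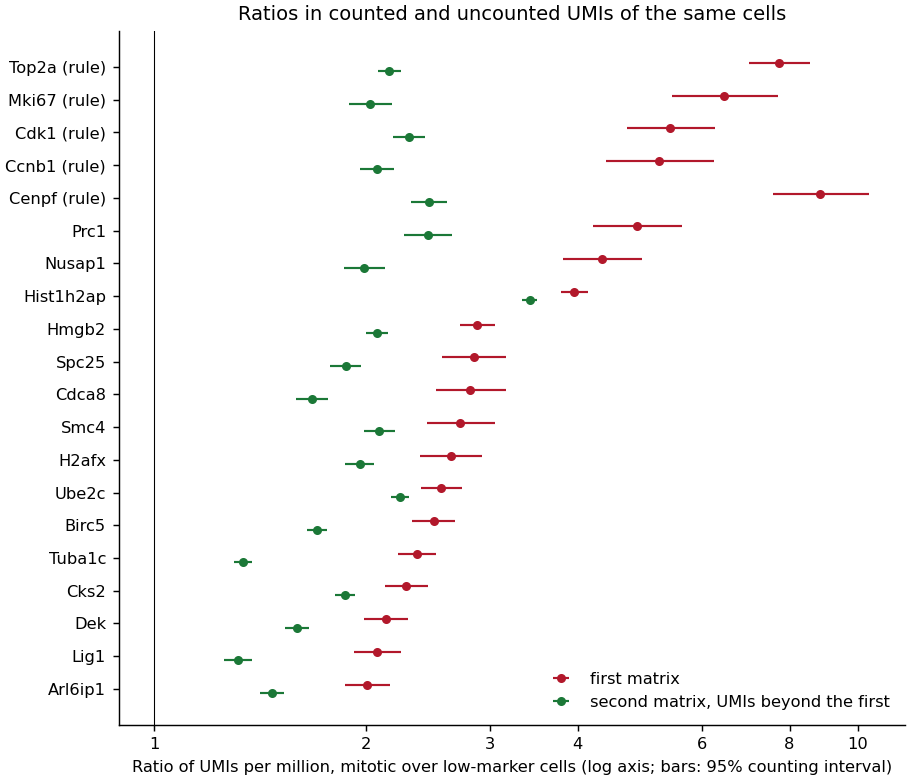
Ratio of CPM, mitotic over low-marker cells, on a log axis with 95% counting intervals, for the 5 rule genes and the 15 other abundant genes with the largest ratio, in the UMIs of the rule's matrix (red) and in UMIs of the deeper matrix beyond them (green). The rule genes fall from between 5.21 and 8.85 to between 2.03 and 2.45, whereas Hist1h2ap stays at 3.96 and 3.42.

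Across the transcriptome few genes set the classes apart. Of 3711 genes with enough UMIs, 97 were at least 2-fold higher in mitotic cells (2.61%) and 36 at least 2-fold lower (0.97%), and the median log2 ratio was 0.11. Since the rule used these cells, nothing is read from those shares. Against the 574 low-marker cells inside the UMI range of the mitotic cells, 96 of the 97 and 33 of the 36 were again past 2-fold. This reused the mitotic cells and UMIs of the rule, so it is no independent check. In the deeper matrix 52 of 4375 genes were higher (1.19%) and 7 lower (0.16%). Of 62 named genes past 2-fold in the rule's matrix, 31 were past 2-fold in the deeper one and 23 in its unused UMIs, so ratios in the rule's matrix are not read as sizes of difference. A gene entered with 20 CPM or more in either class, and genes that reached this in mitotic cells alone had to be higher there. Of the 58 entered genes of the 5 mitosis lists outside the rule, 24 entered in that way, and counts over lists are therefore given as a description. In the unused UMIs 17 of those 58 were past 2-fold, against 42 in the rule's matrix. No share over all genes is given for the unused UMIs, so list counts there are not set against a background.

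Of 20 mitotic kinases and cyclins 10 entered, 7 of them through the mitotic class alone. In the rule's matrix 8 of the 10 passed 2-fold (median log2 ratio 1.64), and in the unused UMIs 6 did (1.12). Aurkb, the kinase of the chromosomal passenger complex, was at 29.9 CPM in mitotic and 5.70 in low-marker cells, a ratio of 5.24 (3.97 to 7.03), and its ratio in the unused UMIs was 3.2. Ccnf, cyclin F, had a ratio of 3.99, Aurka, the spindle pole kinase, 3.54, and Cdc25b, a phosphatase that activates Cdk1, 3.36. Cks2, a small Cdk-binding protein, was at 240 and 105 CPM, a ratio of 2.28, and 1.87 in the unused UMIs.

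Of 23 spindle genes 14 entered, 5 through the mitotic class alone. Past 2-fold were 10 of the 14 in the rule's matrix (median log2 ratio 1.22) and 2 in the unused UMIs (0.79). Of 12 cytokinesis genes 6 entered, 4 through the mitotic class alone. All of these 6 passed 2-fold in the rule's matrix (1.54) and 4 in the unused UMIs (1.04). Prc1, which bundles microtubules of the spindle midzone, was at 104 CPM in mitotic and 21.4 in low-marker cells, a ratio of 4.86 (4.21 to 5.63), and 2.45 in the unused UMIs. Kif23, a midzone kinesin, had a ratio of 5.20, and Racgap1, its partner in the centralspindlin complex, 3.03. Nusap1, a microtubule-binding protein of the spindle, was at 117 and 27.1 CPM, a ratio of 4.33, and 1.99 in the unused UMIs. Ckap2l had a ratio of 4.08 and Tpx2, which activates Aurka on the spindle, 3.16, with 3.04 and 1.91 in the unused UMIs.

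Of 26 kinetochore and centromere genes 17 entered, 6 through the mitotic class alone. Past 2-fold were 14 of the 17 in the rule's matrix (median log2 ratio 1.32) and 3 in the unused UMIs (0.77). Cenpe, a kinetochore motor, had a ratio of 4.72, and the shugoshins Sgol1 and Sgol2a, which protect centromeric cohesion, 3.64 and 3.99. In the unused UMIs these 3 were at 2.82, 2.60 and 2.64. Incenp, the scaffold of the passenger complex, had a ratio of 3.57, its partners Birc5 (survivin) and Cdca8 (borealin) 2.50 and 2.81, and Spc25, part of the Ndc80 complex, 2.85. These 4 were under 2-fold in the unused UMIs, at 1.73, 1.70, 1.68 and 1.87.

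Of 11 entered APC/C and anaphase genes 4 passed 2-fold in the rule's matrix (median log2 ratio 0.43) and 2 in the unused UMIs (0.27). Fbxo5 (Emi1, an APC/C inhibitor) had a ratio of 3.42, Cdc20 (an activator) 2.78, Ube2c (its ubiquitin-conjugating enzyme) 2.56 and Fzr1 (Cdh1, an activator of late mitosis) 2.11. In the unused UMIs these 4 were at 2.16, 1.86, 2.24 and 1.42. Of 14 entered chromosome condensation genes 7 passed 2-fold (median 1.11), and 2 did in the unused UMIs (0.70). The condensin subunits Ncaph, Ncapd2 and Smc4 had ratios of 3.29, 2.79 and 2.72, and Hmgb2, a chromatin protein, 2.88, and in the unused UMIs these 4 were at 1.75, 1.94, 2.09 and 2.07.

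S phase genes leaned the same way, and few passed 2-fold outside the rule's matrix. Of 11 entered licensing genes 3 passed 2-fold in the rule's matrix (median log2 ratio 0.82), 1 in the deeper matrix and 1 in the unused UMIs (0.42). Of 23 entered replication fork and nucleotide genes 8 passed in the rule's matrix (0.83) and none in the unused UMIs (0.51), and 1 of the 28 entered in the deeper matrix did. Dbf4, the activator of the Cdc7 kinase, had a ratio of 2.64, Gmnn (geminin), which blocks relicensing, 2.36, and Mcm6, a subunit of the replicative helicase, 2.06. Tk1, thymidine kinase, had a ratio of 2.71 and Rrm2, the small subunit of ribonucleotide reductase, 2.41. In the unused UMIs Dbf4 was at 2.06, and Gmnn, Mcm6, Tk1 and Rrm2 were under 2-fold, at 1.57, 1.48, 1.8 and 1.99. Hist1h2ap, a replication-dependent H2A histone gene, was at 921 CPM in mitotic and 233 in low-marker cells, a ratio of 3.96 (3.79 to 4.13). It belongs to a cluster of near-identical genes, so reads may be divided among copies. Hist1h2bc and Hist1h1c were lower, at ratios of 0.554 and 0.661.

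**Figure D4:**
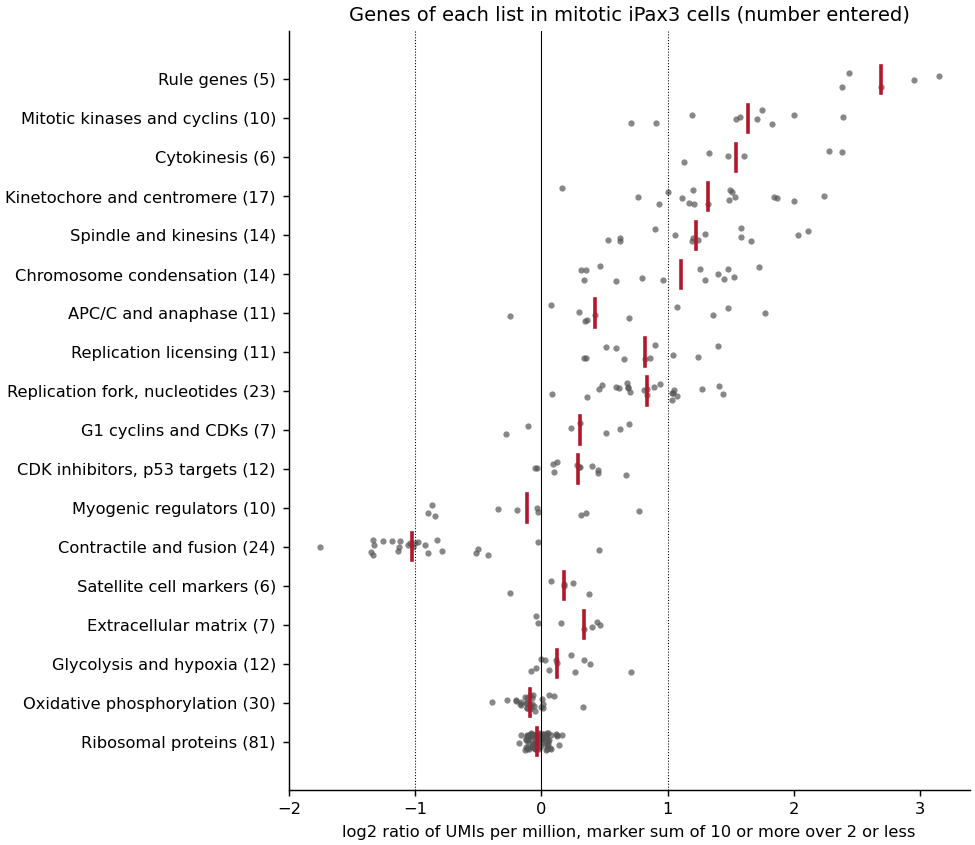
Log2 ratio of CPM, mitotic over low-marker cells, for every entered gene (points) of each list, with the list's median (red bar) and dotted lines at 2-fold. The kinase, cytokinesis, kinetochore and spindle lists have medians from 1.22 to 1.64, the contractile list lies at -1.03, and ribosomal protein genes lie at -0.04.

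In the deeper matrix the rates of the mitosis and S phase lists had Pearson's r = 0.036 and Spearman's rho = -0.0050 over the 686 mitotic cells, which share 1 library and its free RNA. The rule narrowed the range of both lists in these cells, so the value is not set against that over all cells. The mitotic cells were ranked by the S phase share of these UMIs and divided into quartiles of 171 or 172 cells. From the lowest to the highest quartile, Hist1h2ap was at 338, 648, 1097 and 1652 CPM. Pcna, the replication clamp, was at 20.6 CPM in the lowest and 57.0 in the highest quartile, which its place in the ranking favours. Ccne1 and Ccne2, the cyclins that start S phase, were not used in the ranking. Ccne1 was at 51.5 and 93.9 CPM and Ccne2 at 48.5 and 93.2. The rule genes were not used in it either, and Ccnb1 was at 163 CPM in the lowest and 81.7 in the highest quartile and Cenpf at 177 and 96.9. Cdc20, at 158 and 77.3, was among the mitosis genes used, and its fall follows from the ranking. Top2a was nearly level, at 304 and 298 CPM. The class thus spans cells with more S phase and cells with more mitosis transcripts. Its name stands for the rule, and the phase of single cells was not determined.

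Some genes outside the rule were also followed along the marker sum. They were named for their large ratio in this same matrix, so their climb from low to high sums follows from that choice. Prc1 was at 16.3 CPM in cells at a sum of 0, 23.1 at 1 to 2, 54.9 at 3 to 9, 101 at 10 to 19 and 111 at 20 to 39. Nusap1 ran from 21.9 CPM at a sum of 0 to 109 at 10 to 19 and 132 at 20 to 39. Hist1h2ap was highest at 10 to 19, at 1037 CPM, and stood at 697 at 20 to 39. The bin at 40 or more held 10 cells and is not read.

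Muscle contractile genes had lower summed levels in mitotic cells, and by less in the UMIs that the rule had not used. Of 24 entered contractile and fusion genes 14 were at least 2-fold lower and 0 higher in the rule's matrix, with a median log2 ratio of -1.03. In the deeper matrix 2 of the 24 were (median -0.69), and in the unused UMIs also 2 (-0.58). The latter pair, the myosin light chains Myl1 and Myl4, were at 252 and 507 and at 54.1 and 127 CPM there. Mylpf, a fast myosin light chain, was at 496 CPM in mitotic and 1261 in low-marker cells, Acta1, skeletal actin, at 138 and 348, and Actc1, cardiac actin, at 310 and 679. The troponins Tnnc2 (206 and 518 CPM), Tnni1 (171 and 428) and Tnnt2 (172 and 379) and the fusion gene Tmem8c (myomaker, 65.1 and 142) were lower as well. None of these 7 was past 2-fold in the unused UMIs, where Mylpf was at 798 and 1339 CPM, Acta1 at 299 and 532 and Actc1 at 494 and 731. The small barcodes held 1294 CPM of Mylpf and 696 of Actc1 there, near the low-marker levels and above the mitotic ones. These levels are therefore not read as expression of the classes, and what free RNA contributed was not tested.

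This difference came with a minority of cells. The median cell hardly differed, at 35.9 contractile UMIs per 10000 in mitotic and 35.4 in low-marker cells of the deeper matrix, whereas the 75th percentiles were 43.0 and 94.1. Cells at 100 or more per 10000, a threshold chosen after the values were seen, were 82 of 686 mitotic cells (12%, 9.62 to 14.6) and 248 of 1027 low-marker cells (24.1%, 21.6 to 26.9). At 200 or more the shares were 1.31% and 10.3%. Without the cells at 100 or more in either class, the median log2 ratio of the same 24 genes was 0.13 with 0 past 2-fold. Leaving out cells chosen by these genes narrows their difference by construction, so nothing is read from this value. With those cells left out, 38 of 58 genes of the 5 mitosis lists outside the rule were past 2-fold. All 38 were among the 42 past 2-fold with all cells.

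The 82 mitotic cells high in contractile genes carried transcripts of both programmes. Their median rate of mitosis-list UMIs was 117 per 10000, against 101 in the other mitotic cells, and Myog, the factor of terminal myogenic differentiation, was at 769 CPM against 150. They held fewer UMIs, with a median of 47639 in the deeper matrix against 68969.5. A cell with fewer UMIs needs a higher marker rate to reach a sum of 10, and their rule-gene rate was 11.4 per 10000 against 7.89. Whether doublets of a dividing and a differentiating cell contributed was not tested. Myog had a UMI in 685 of 686 mitotic and 982 of 1027 low-marker cells of the deeper matrix. In its UMIs beyond the shallower matrix, Myog was at 378 CPM in the small barcodes, 247 in mitotic and 412 in low-marker cells, so that the presence of a Myog UMI is not read as expression.

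Among the 10 entered myogenic regulators none was past 2-fold, and the median log2 ratio was -0.11. Pax3, whose transgene defines these cells, was at 125 CPM in mitotic and 227 in low-marker cells, a log2 ratio of -0.87. It was -0.63 without the contractile-high cells, whereas Mef2c went from -0.90 to 0.35 and Myog from -0.84 to 0.15. The cells left out were chosen by contractile genes and were also high in Myog, so these shifts are a description. The files do not part transgenic from endogenous Pax3. Myf5, an early myogenic factor, was at 15.6 and 11.5 CPM, and Myod1 at 25.6 and 32.4. Id2, an inhibitor of bHLH factors, was at 37.6 and 22 CPM. Pax7, the satellite cell factor, had 0 UMIs in both classes. In the unused UMIs the median log2 ratio of the list was -0.12. Pax3 was at 124 CPM in mitotic and 161 in low-marker cells there, a log2 ratio of -0.37. The small barcodes held 116 CPM of Pax3, so its levels are not read as expression of the classes.

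Among CDK inhibitors and p53 targets 0 of 12 entered genes passed 2-fold, with a median log2 ratio of 0.29. With the filter on UMIs but no CPM floor, 18 of these genes counted. Of the 18, 1 was at least 2-fold higher and 2 at least 2-fold lower. Cdkn1a was abundant in both classes, at 763 and 711 CPM, but the small barcodes held 678 CPM in the same matrix. Cdkn1c had 50 UMIs in mitotic and 156 in low-marker cells, or 3.3 and 15.6 CPM, a ratio of 0.212 (0.151 to 0.293), and its level was under the 20 CPM needed for entry. Without the contractile-high cells its log2 ratio was -1.75. In the unused UMIs Cdkn1c was at 4.81 and 13.8 CPM, a ratio of 0.348, and the small barcodes held 5.09. The deeper matrix held a Cdkn1c UMI in 161 of 686 mitotic (23.5%) and 150 of 1027 low-marker cells (14.6%). The highest cells had 23 and 58 UMIs. Mitotic cells hold more UMIs in all, and the ratio is not read as a difference in most cells. Ccnd1, a cyclin of G1, was at 356 and 288 CPM.

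Housekeeping classes and other cell types moved less. No entered gene passed 2-fold among 81 ribosomal protein genes (median log2 ratio -0.04), 30 oxidative phosphorylation genes (-0.09) or 12 mitochondrially coded genes (-0.15). Krt18 and Krt8, keratins of simple epithelia, were at 225 and 125 and at 324 and 204 CPM, log2 ratios of 0.84 and 0.67. Their small-barcode levels in the unused UMIs, 275 and 512 CPM, were at or above those of mitotic cells, 271 and 486. All 9 erythroid markers were at 0, and the summed levels of the endothelial (16.2 and 10.7 CPM), immune (4.49 and 4.0) and pluripotency (1.06 and 1.2) markers were near 0, with Cdh5, Ptprc and Nanog at 0.

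The authors' deposited table of 7 iPax3 clusters spread the rule genes widely. In the authors' deposited table Top2a had its highest scaled mean of 3.94 UMIs in cluster 3 and its lowest of 0.658 in cluster 4. Ccnb1 was highest in cluster 5, at 0.724, with 0.721 in cluster 3, in the authors' deposited table. Myog and Actc1 were highest in cluster 1, at 5.68 and 18.6 in the authors' deposited table, where Top2a stood at 2.64.

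The bulk libraries gave a readout of the mitosis genes in other samples. Fewer dividing cells and less RNA per cell cannot be told apart in bulk. Total counts ran from 516504 (Fet replicate 1) to 56275318 (iPax3 replicate 1). The comparisons of iPax3 with Emb, Fet, Neo and iPax7 share the same 3 iPax3 libraries. Summed over the 5 rule genes, the 3 iPax3 libraries were at 1792, 1380 and 1990 CPM and the iPax7 libraries at 2606, 1115 and 1693. The Emb libraries were at 1927, 1627 and 1598 CPM, the Fet libraries at 977, 2022 and 1547, and the Neo libraries at 585, 694 and 487. The Neo libraries lay below all others, and the other 4 groups overlapped.

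Against Neo, mitosis genes were widely higher in iPax3. By the quasi-likelihood test of edgeR, adjusted after Benjamini and Hochberg, 54 of 100 mitosis genes rose (11.3% of all 17571 genes tested did) and 1 fell (11.3%). Ccnb1 was at 142, 124 and 174 CPM in iPax3 and 8.91, 18.3 and 13.5 in Neo, a log2 fold change of 3.44 ± 0.42 (SE, edgeR adjusted p = 3.9e-05). Cdk1 was at 161, 117 and 187 CPM against 45.8, 24.6 and 29.2, a log2 fold change of 2.22 ± 0.40 (edgeR adjusted p = 0.0011). Both genes had every iPax3 library above every Neo library. Cenpf rose by 2.2 ± 0.42 (edgeR adjusted p = 0.0016) and Top2a by 1.96 ± 0.39 (edgeR adjusted p = 0.002). Mki67 did not pass, at 476, 348 and 472 CPM against 269, 366 and 256 (0.54 ± 0.35, edgeR adjusted p = 0.28), and the groups overlapped. The kinesins Kif2c and Kif4 rose by 3.33 and 3.29 (edgeR adjusted p = 0.00024 and 0.00032). Stmn1, a microtubule-destabilising protein, was the gene that fell, named after its values were seen, by 1.21, and no gene fell without any iPax3 library or without Neo replicate 1 or 2. Markers of endothelium moved with this contrast: they summed to 2352 to 2995 CPM in Neo and 8.12 to 17.5 in iPax3, and their part in the result was not tested.

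Against Emb and Fet fewer mitosis genes passed. Against Emb 8 rose (9.34% of all genes did) and 6 fell (7.64%). Cdk1 was at 55.9, 43.1 and 105 CPM in Emb, below every iPax3 library (1.19 ± 0.39, edgeR adjusted p = 0.045), and the adjusted p was 0.055 to 0.15 by edgeR when any iPax3 library or Emb replicate 1 or 2 was left out. Without iPax3 replicate 1, 2 or 3 or Emb replicate 3, between 4 and 5 genes rose, and without any iPax3 library or Emb replicate 2 or 3 between 1 and 3 fell. Of the tubulin genes named here, Tubb4b and Tuba1b rose: Tubb4b by 3.13 and Tuba1b by 2.12 (edgeR adjusted p = 0.0012 and 0.0022), though reads may be divided among near-identical tubulin genes. Anln, an anillin of the cleavage furrow, was at 237, 191 and 284 CPM in iPax3 and 69.1, 11.7 and 33.2 in Emb, a rise of 2.64 ± 0.58 (edgeR adjusted p = 0.0057). Stmn1 fell by 3.04 (edgeR adjusted p = 8.7e-05). Tubb5, a tubulin gene singled out after its values were seen, went the other way, at 1630, 1663 and 1828 CPM in iPax3 and 2211, 3598 and 3175 in Emb, and fell by 0.81 ± 0.23 (edgeR adjusted p = 0.024). Top2a, Mki67, Ccnb1 and Cenpf did not pass, with log2 fold changes of 0.06, -0.57, 0.86 and 0.20.

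Against Fet 6 rose (2.85%) and 1 fell (5.68%), and none of the 5 rule genes passed. Zwint, a kinetochore protein, was at 298, 432 and 383 CPM in iPax3 and 105, 167 and 184 in Fet, a rise of 1.28 ± 0.29 (edgeR adjusted p = 0.011). Hjurp, the chaperone of the centromeric histone CENP-A, fell by 1.26 (edgeR adjusted p = 0.026). Fitted on these 2 groups alone, 40 mitosis genes rose and 2 fell, where 19.7% of all 16709 genes then tested rose and 18.4% fell. Endothelial markers moved with this contrast too, at 230, 446 and 568 summed CPM in Fet against 8.12 to 17.5 in iPax3, and their part in the result was not tested. Without iPax3 replicate 2 none rose, and without any other single library 1 or 2 did.

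Between iPax7 and iPax3, 0 of 100 mitosis genes rose and 0 fell by edgeR (0.0569% and 0.0171% of all genes did), and 3 had an unadjusted p under 0.05. DESeq2 called 0 as well, and so did edgeR without iPax7 replicate 1. The iPax7 libraries were spread, and replicate 1 stood apart, with 4411 CPM of summed pluripotency markers against 3.53 and 3.72 in the others and the highest rule-gene sum of the 15 libraries. Top2a was at 1498, 472 and 679 CPM in iPax7 and 787, 606 and 920 in iPax3, and the groups overlapped.

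**Figure D5:**
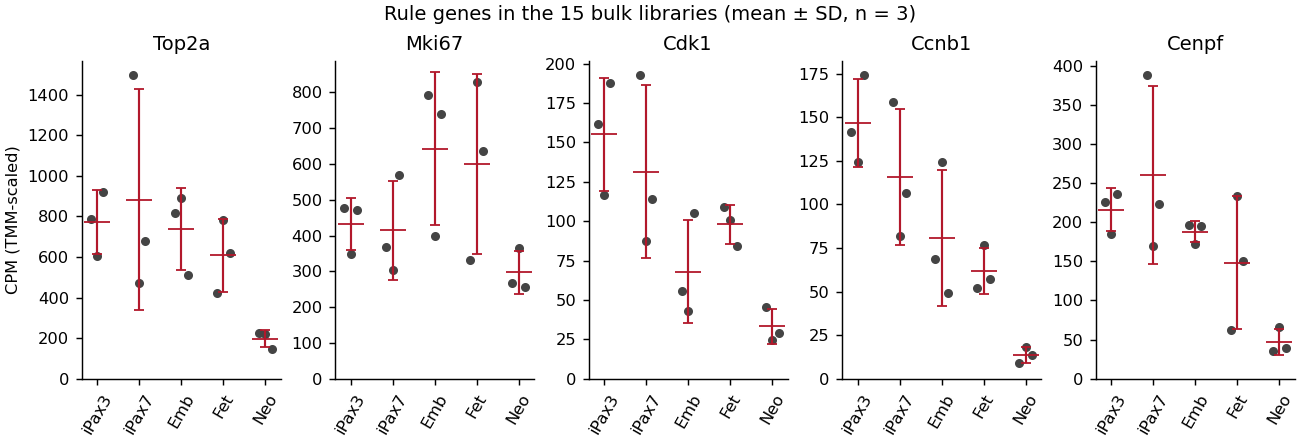
Level of each rule gene in the 15 bulk libraries (points, TMM-scaled CPM, linear axis from 0), with the mean and SD of each group of 3 in red. Neo is lowest for all 5 genes by mean. Of the 5, only Cdk1 differed between iPax3 and Emb (edgeR adjusted p = 0.045), and none between iPax3 and Fet.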

How the data were processed

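Bulk reads were processed with CASAVA 1.8, HISAT2 2.0.2 and featureCounts 1.4.6 on mm10, and single cells with Cell Ranger 2.2.0, per the submitters' processing notes; annotation release and strand setting are not given in the sources used here. The authors deposited raw read counts per gene for 15 bulk libraries, UMI counts per barcode for the single cells, and a cluster table with a score, the scaled mean UMI count per cell. Its clusters were used as a description.

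UMIs were summed per class and divided by the class total (CPM). A gene entered with at least 20 UMIs in both classes together and 20 CPM in the higher class, and a ratio of 2 was counted. Intervals are exact conditional-binomial 95% intervals. Bulk counts were filtered with filterByExpr, scaled by TMM and fitted over all 15 libraries in edgeR 4.0.16 (R 4.3.3), with Benjamini-Hochberg adjustment at 0.05; bulk symbols came from GENCODE M21. Both methods were tested on simulated data. The members, lists and comparisons were chosen with earlier results of these data known. Named single-cell genes are the rule genes, the 15 largest changes each way at 100 CPM or more, up to 4 per list and a fixed set of regulators; named bulk genes are the rule genes and up to 4 per contrast by adjusted p; Birc5, Cdca8, Spc25 and Cks2 come from the first of these. Alternatives were other thresholds, depths, filters, DESeq2 1.42.0, a replicate block and leaving out each library.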

Additional observations from a re-analysis of the deposited data

How the results depend on the processing

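The share of mitotic cells, 23.4%, followed the threshold and the depth: 47.5% at a sum of 5, 6.28% at 20, 4.02% after thinning, 33.8% under 5% mitochondrial UMIs, 74.7% among all cells of the deeper matrix and, in settings chosen after seeing the data, 79.7% for the same cells there and 15.3% at a fixed marker rate. The 97 higher and 36 lower genes became 171 and 81 against cells at a sum of 0, 23 and 1 against all cells under 10, 842 and 918 with no filter but 1 UMI, 20 and 18 at 100 CPM, 52 and 7 in the deeper matrix, and 43 and 5 in its unused UMIs, a setting chosen after seeing the data. Thinning left 21 lower genes. Leaving out cells high in contractile genes, also chosen after seeing the data, left 10 lower genes and by construction turned the contractile median to 0.11 over the genes then entered, and the log2 ratios of Mylpf to 0.18, Acta1 to 0.066, Tnnc2 to 0.12, Tnni1 to 0.081, Myl1 to 0.0698, Tnnc1 to 0.25, Tnnt2 to 0.018, Actc1 to 0.13, Tmem8c to 0.11, Cck to 0.0883, Cox8b to 0.084, Sct to 0.10 and Tnni2 to 0.37.

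Leaving out 1 bulk library gave 4 to 11 higher and 1 to 7 lower mitosis genes against Emb, 0 to 2 and 0 to 1 against Fet, 39 to 50 and 0 to 1 against Neo, and 0 in either direction for iPax7. Against Fet 2 fell with RLE size factors, with no filter but 1 count, with DESeq2 and with the 2 groups alone, where 40 rose; against Neo 4 fell with DESeq2. The cause was not tested. Same-numbered libraries did not deviate together (correlations -0.331 to 0.0165), and the main fit used no pairing. With 3 libraries in a group this check cannot exclude shared batches. With a replicate block 8, 4 and 51 genes rose against Emb, Fet and Neo and 6, 1 and 1 fell. No rule gene changed its call with the block. Free RNA and a single iPax3 library limit every single-cell value, and the 516504 counts of Fet replicate 1 limit that contrast.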
